A study of Homo sapiens with 12 samples.

Results

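The core kinase cascade from RAS to ERK was followed through 7 of its genes, NRAS, HRAS, ARAF, BRAF, MAP2K1, MAP2K2 and MAPK3, chosen by symbol. All 7 were among the 25540 genes listed for both lines of the series. RNA was sequenced from LS411N, a human colon cancer line widely used as a BRAF-mutant model, and from LS411N-BR, which the labels describe as resistant to BRAF inhibitors. LS411N was not resistant and grew in RPMI with serum, and LS411N-BR grew in the same medium with 4 µM of a BRAF inhibitor whose name the labels do not give. Both lines carried a doxycycline-inducible hairpin RNA against MUC1 and were puromycin resistant. Each was sampled as a control with 0.1% DMSO as vehicle and no doxycycline, and as a MUC1-C knockdown with 500 ng/ml doxycycline. Each of these 4 groups had 3 libraries, from cells cultured in triplicate, so 12 libraries entered. Whether the triplicates were separate experiments is not given, and p-values measure only the spread between these libraries. Doxycycline and the hairpin were always present together, as were the resistant line and its inhibitor, so the effects within each pair cannot be told apart. The labels do not say whether either line is a single clone.

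RAS proteins are small GTPases that switch on when receptors recruit exchange factors. GTP-bound RAS brings RAF kinases to the membrane, RAF phosphorylates the MEK kinases, and MEK phosphorylates ERK, which acts on cytoplasmic and nuclear targets. In colon cancer an activating mutation of BRAF drives the pathway without RAS, and under BRAF inhibitors signal can return through RAS and the other RAF proteins. Transcript levels, which were measured here, do not report the activity of the kinases.

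By GENCODE 29 (GRCh38), NRAS lies at chr1:114704469-114716894, HRAS at chr11:532242-537287, ARAF at chrX:47561100-47571920 and BRAF at chr7:140719327-140924928. MAP2K1 lies at chr15:66386817-66492312, MAP2K2 at chr19:4090321-4124129 and MAPK3 at chr16:30114105-30123506. The opposite strand of BRAF holds NDUFB2, listed at up to 118 TPM, and that of MAP2K1 holds SNAPC5, at up to 15.2 TPM. Whether reads were counted by strand was not stated, so reads in these overlaps may have been shared.

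The MAPK3 result with doxycycline and the HRAS result between the lines are the ones the text turns on, so DNA at their 5′ ends is shown. Both stretches come from the 250 bases before a RefSeq start (GRCh38.p14), run 5′ to 3′ on the minus strand, and leave out bases that GENCODE 29 places in an untranslated region. Both lie inside the GENCODE 29 bounds of their genes, which reach farther 5′ than the RefSeq starts used. Capitals mark the GC box GGGCGG and the ETS-type word CCGGAAG, searched on both strands.
MAPK3, chr16:30123310-30123470: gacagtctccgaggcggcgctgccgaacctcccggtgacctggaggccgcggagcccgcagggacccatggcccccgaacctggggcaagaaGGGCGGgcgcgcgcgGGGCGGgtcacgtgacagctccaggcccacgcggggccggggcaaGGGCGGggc
HRAS, chr11:535577-535826: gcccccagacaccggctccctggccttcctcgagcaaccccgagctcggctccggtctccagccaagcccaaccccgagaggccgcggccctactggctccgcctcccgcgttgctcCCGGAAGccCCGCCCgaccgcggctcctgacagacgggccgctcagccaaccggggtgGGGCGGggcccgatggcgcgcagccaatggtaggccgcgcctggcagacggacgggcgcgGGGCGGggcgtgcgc
The full 250-base window of MAPK3 held 6 GC boxes, 3 of them in the stretch shown, and was 80.4% G or C, against a median of 58% over 35116 windows of that length. At least 6 GC boxes were present in 2.22% of those windows. HRAS had 3 GC boxes, 1 CCGGAAG word and 77.2% G or C. At least 3 GC boxes were found in 13.9% of windows and CCGGAAG in 8.52%. The window of NRAS, compared with HRAS below, held 2 GC boxes at 54.4% G or C, and 24.3% of windows had at least 2. These matches are letters in a window and no evidence of binding.

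The hairpin's target checked the doxycycline labels. MUC1 was 4.64, 6.1 and 4.54 TPM in LS411N without doxycycline and 0.986, 0.814 and 0.967 TPM with it. In LS411N-BR it was 3.69, 3.94 and 4.27 TPM without and 0.699, 0.388 and 0.44 TPM with doxycycline. Every library matched its doxycycline label, and MUC1 does not check which line a library came from. TPM is read count divided by gene length, scaled to a fixed sum in each library, so it moves with whatever else fills that library. Protein-coding genes took 41.0 to 51.6% of the TPM of an LS411N library and 44.9 to 51.7% in LS411N-BR. Symbols without a RefSeq match counted as not protein-coding. The lines were scaled over different genes, so these shares are not comparable between them. In the untreated LS411N group, replicate 3 held 51.6% and both other libraries 41.0%, so it stands apart. In LS411N-BR the share was 45.7% ± 1.02 (SD, n = 3) without and 49.3% ± 2.06 with doxycycline, and the median log2 fold change over all genes there was 0.18. The doxycycline effect on each gene of the core cascade is therefore also given after median-of-ratios rescaling. This rescaling divides a library by the median ratio of its genes to their mean over libraries. Effects on single genes outside the core cascade are mostly given as deposited only. All 8 colon epithelial markers were present, summing to 2107 to 2953 TPM in untreated and 2996 to 3462 TPM in treated LS411N, and to 2673 to 2852 and 3970 to 4169 TPM in LS411N-BR. The 9 fibroblast and endothelial markers summed to at most 0.784 TPM in LS411N and 3.82 TPM in LS411N-BR, where 1 of them (LUM) reached 1 TPM. Of 8 immune markers 2 reached 1 TPM, LYZ and CD68, and MS4A1 was at 0 in all groups. The immune sum, mostly LYZ in LS411N, was 2276 to 3087 TPM in untreated and 1391 to 1431 TPM in treated LS411N, and 182 to 190 and 118 to 122 TPM in LS411N-BR. With doxycycline LYZ fell (log2 fold change -0.88 in LS411N and -1.61 in LS411N-BR) and CD68 rose (1.2 and 1.00). The part of these markers in the results was not tested.

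MAPK3, which encodes the ERK kinase ERK1, rose with doxycycline in both lines, and it was the only one of the 7 genes called in LS411N as deposited. In LS411N it was 9.9, 10.9 and 9.95 TPM without doxycycline and 16.8, 16.6 and 15.6 TPM with it. The groups did not overlap, and the mean went from 10.2 ± 0.55 to 16.4 ± 0.642 TPM (SD, n = 3), 59.9% higher. In LS411N-BR the libraries read 16.6, 17.1 and 15.8 TPM without and 26.7, 24.4 and 23.9 TPM with doxycycline, again without overlap, a mean 52% higher.

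The log2 fold change of MAPK3 was 0.63 ± 0.14 (SE) in LS411N (limma adjusted p = 0.0007) and 0.57 ± 0.07 in LS411N-BR (adjusted p = 2.4e-17), on the log2(TPM + 1) scale. These lay above 97% of the 11281 genes tested in LS411N and 91.8% of the 11322 tested in LS411N-BR. After rescaling they were 0.56 ± 0.10 (adjusted p = 0.0038) and 0.38 ± 0.04 (adjusted p = 1.2e-05). The call held under all 16 alternatives run in LS411N (adjusted p from 1.7e-05 to 0.018) and all 15 in LS411N-BR (2.7e-17 to 0.00069), with log2 fold changes down to 0.42 and 0.38. No difference between the lines was detected (LS411N-BR minus LS411N -0.05, 95% confidence interval -0.31 to 0.20, limma adjusted p = 0.88; -0.18 and adjusted p = 0.36 after rescaling).

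**Figure D1:**
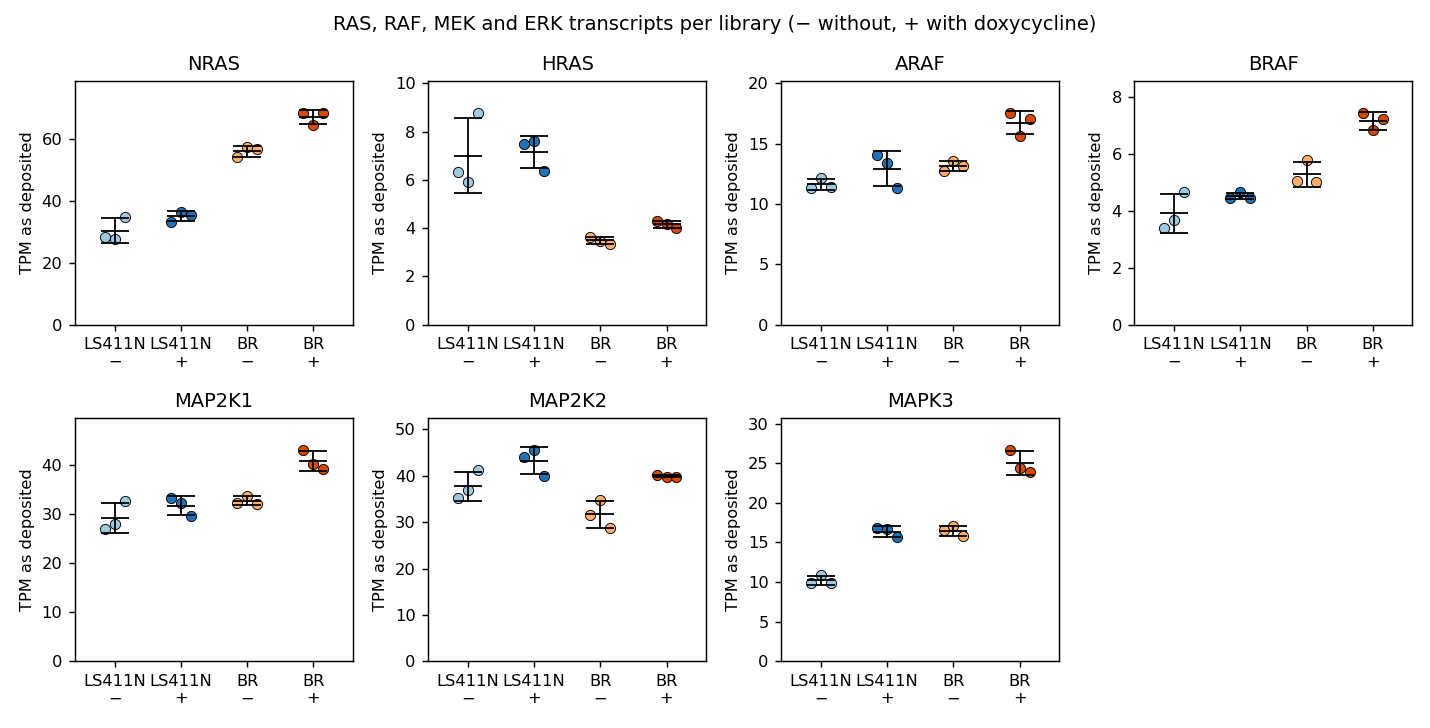
TPM as deposited (vertical axis, from 0) in each of the 12 libraries, for the 7 genes. Points are libraries and bars are the group mean ± SD (n = 3). MAPK3 with doxycycline lies above its own line's controls in both lines, and HRAS is at 4.29 TPM or less in every LS411N-BR library.

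The other genes of the cascade were not called in LS411N. Of 7 genes tested 1 was called higher and 0 lower, beside 9.75% and 3.43% of all genes (13.2% in either direction). MAPK3 was again the only one after rescaling, beside 18.8% and 16% (34.8% in either direction). Groups without overlap, all with the higher values under doxycycline, were found for MAPK3 as deposited and for MAPK3 and BRAF after rescaling, beside 19.3% and 26.1% of all genes (9.61% and 23.5% with lower values). The median log2 fold change of the 7 was 0.18 as deposited and 0.12 rescaled, beside 0.08 and 0.01 over all genes. Without the replicate that stood apart, 6 of the 7 were called higher as deposited, all but ARAF, beside 53% of all genes. The count was 1 beside 25.2% when that replicate was left out and the rest rescaled, and 3 beside 25.3% with all libraries rescaled over protein-coding genes. That library also held the largest protein-coding share of its group, and the part of this in the count was not tested.

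NRAS, the RAS gene with the most transcript of the pair measured, had 28.3, 27.8 and 34.9 TPM without and 33.2, 36.3 and 35.5 TPM with doxycycline in LS411N. The ranges overlapped (log2 fold change 0.21, 95% interval -0.08 to 0.49, limma adjusted p = 0.39). HRAS had 6.32, 5.91 and 8.78 TPM without and 7.5, 7.6 and 6.38 TPM with it (0.04, interval -0.24 to 0.32, adjusted p = 0.89). The highest HRAS value was the replicate that stood apart, and the sign of the HRAS difference turned after rescaling (-0.02).

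Among the RAF kinases, ARAF, whose own kinase activity is low and which pairs with the other RAF proteins, had 11.3, 12.2 and 11.4 TPM without and 14.1, 13.4 and 11.3 TPM with doxycycline in LS411N. BRAF, the kinase that the inhibitor of the resistant line is aimed at, had 3.38, 3.66 and 4.67 TPM without and 4.45, 4.64 and 4.46 TPM with it. Both overlapped between groups as deposited, with log2 fold changes of 0.14 (interval -0.14 to 0.41, limma adjusted p = 0.59) and 0.18 (-0.08 to 0.44, adjusted p = 0.43).

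The MEK kinases, which pass the signal from RAF to ERK, also overlapped in LS411N. MAP2K1 (MEK1) had 27.1, 28.0 and 32.8 TPM without and 33.3, 32.3 and 29.6 TPM with doxycycline (log2 fold change 0.11, interval -0.17 to 0.40, limma adjusted p = 0.68). MAP2K2 (MEK2) had 35.1, 36.9 and 41.3 TPM without and 44.1, 45.7 and 40.0 TPM with it (0.19, interval -0.09 to 0.48, adjusted p = 0.43). The intervals of these 6 genes reach at most 0.49 on the log2 scale, below the MAPK3 estimate. As deposited, the interval of MAPK3 itself, 0.36 to 0.90, overlaps all of them but that of HRAS. After rescaling it was 0.32 to 0.79, and those of the other 6 genes reached at most 0.31 (ARAF), so none overlapped it. The rescaled log2 fold changes were 0.13 for NRAS, 0.07 for ARAF, 0.12 for BRAF, 0.04 for MAP2K1 and 0.12 for MAP2K2. Genes were not tested against each other.

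In LS411N-BR all 7 genes were called higher with doxycycline as deposited, beside 56.1% of all genes called higher and 11.1% lower (67.2% in either direction). After rescaling 5 of the 7 were higher and 0 lower, beside 32.3% and 32.2% (64.5% in either direction). All 7 genes had groups without overlap as deposited, beside 56% of all genes higher and 12.1% lower. After rescaling 4 did, ARAF, BRAF, MAP2K1 and MAPK3, beside 34.5% and 34.7%. The median log2 fold change of the 7 went from 0.32 to 0.12 with the rescaling, beside 0.18 and 0.00 over all genes. NRAS and HRAS were the genes not called after rescaling. In LS411N-BR, NRAS and HRAS thus stood nearest to the median of all genes and MAPK3 farthest above it. This order did not hold in LS411N, where only MAPK3 stood above NRAS (log2 fold change 0.21, or 0.13 rescaled).

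BRAF in LS411N-BR was 5.05, 5.78 and 5.0 TPM without and 7.43, 6.82 and 7.21 TPM with doxycycline, 35.6% higher. Its groups did not overlap before or after rescaling, and the log2 fold change was 0.38 ± 0.07 (limma adjusted p = 2.5e-07), or 0.20 ± 0.04 rescaled (adjusted p = 0.0016). ARAF was 12.7, 13.5 and 13.1 TPM without and 17.5, 15.7 and 17.0 TPM with it, 27.5% higher and separate on both scales (0.33 ± 0.07, and 0.13 ± 0.03 with adjusted p = 0.0056 rescaled).

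MAP2K1 in LS411N-BR was 32.3, 33.8 and 32.2 TPM without and 43.2, 40.3 and 39.2 TPM with doxycycline, 24.8% higher as deposited and 7.89% higher rescaled. It passed on both scales (0.31 ± 0.06, and 0.11 ± 0.03 with limma adjusted p = 0.014). MAP2K2 was 31.7, 34.7 and 28.8 TPM without and 40.1, 39.7 and 39.8 TPM with it (0.32 ± 0.06). Its groups were separate as deposited and overlapped after rescaling, where it passed narrowly (0.12 ± 0.05, adjusted p = 0.049).

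NRAS in LS411N-BR was 54.0, 57.4 and 56.7 TPM without and 68.4, 64.4 and 68.3 TPM with doxycycline, and HRAS 3.65, 3.48 and 3.35 against 4.29, 4.19 and 4.0 TPM. Both separated as deposited, by 19.6 and 19%. After rescaling both overlapped and were 3.45 and 2.8% apart (limma adjusted p = 0.21 and 0.59). The HRAS call as deposited (0.20 ± 0.07, adjusted p = 0.011) was also lost without replicate 3 of LS411N-BR without doxycycline (0.069), with the spread taken from all 12 libraries (0.15) and with rescaling over protein-coding genes (0.067), and its limma adjusted p ran from 0.0085 to 0.59 over the alternatives.

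**Figure D2:**
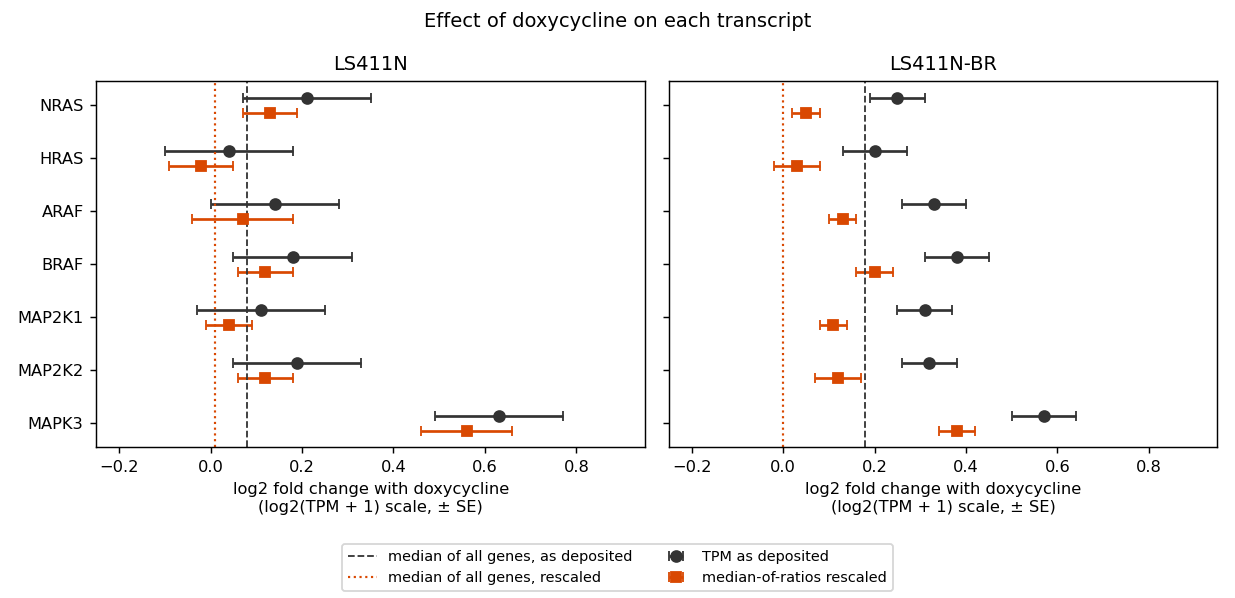
Log2 fold change with doxycycline ± SE (horizontal axis, log2(TPM + 1) scale) per gene, in LS411N (left) and LS411N-BR (right). Circles are TPM as deposited and squares are after median-of-ratios rescaling, and vertical lines are the median of all tested genes on each scale. MAPK3 lies farthest right on both scales in both lines (0.63 and 0.56, 0.57 and 0.38), and in LS411N-BR the rescaled values of NRAS and HRAS lie at 0.05 and 0.03.

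An interaction term asked whether the 7 genes responded differently in the 2 lines, and limma called 0 with a larger and 0 with a smaller effect in LS411N-BR, with 0 at an unadjusted p under 0.05. Of all 11674 genes tested 2.12% were called, 1.39% with a more positive and 0.728% with a more negative effect in LS411N-BR. The estimates ran from -0.05 (MAPK3) to 0.20 (BRAF and MAP2K1) on the log2 scale, and from -0.18 to 0.08 after rescaling, where 0 were called again beside 10.2% of all genes (4.37% and 5.81%). Genes called in LS411N-BR and not in LS411N are thus not shown to respond differently. The interval for BRAF was -0.09 to 0.49 and that for NRAS -0.24 to 0.33.

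Of the 3 paralog ratios compared between the lines, that of the RAS genes differed most. The 2 tables were scaled separately, and the genes they share held 76.1 to 80.3% of the TPM in LS411N and all of it in LS411N-BR, so levels between lines are given without a test. Without doxycycline and after scaling both tables over the shared genes, NRAS was 38.7 TPM in LS411N and 56.0 in LS411N-BR, a ratio of 1.45. As deposited the ratio was 1.85, and 1.77 with median-of-ratios rescaling over all 12 libraries. HRAS was 8.92 and 3.49 TPM, a ratio of 0.392 (0.499 and 0.482 on the other scales). Neither gene overlapped between the lines on any of these scales. Ranked among genes with at least 1 TPM in the same library, NRAS had a percentile of 79.4 to 81.8 in LS411N and 88.1 to 89 in LS411N-BR. HRAS had a percentile of 36.4 to 42.3 and of 19.6 to 23.2.

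A ratio of 2 genes within a library is free of that library's scale, so the ratios of paralogs were compared between the lines with an exact permutation test, two-sided, within doxycycline strata over all 12 libraries. Such a test has 400 arrangements, and 0.005 is the smallest p it can give. The log2 ratio of HRAS to NRAS was -2.16, -2.23 and -1.99 in LS411N without doxycycline and -3.89, -4.05 and -4.08 in LS411N-BR. With doxycycline it was -2.15, -2.25 and -2.48 in LS411N and -4.00, -3.94 and -4.10 in LS411N-BR. All 6 LS411N-BR libraries thus lay below all 6 of LS411N, with a mean difference of -1.80 (exact permutation p = 0.005, adjusted p = 0.015 over 6 tests). HRAS made up 18.6% ± 1.32 of the summed TPM of both genes in untreated LS411N and 5.88% ± 0.402 in LS411N-BR.

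The MEK pair also shifted. The log2 ratio of MAP2K2 to MAP2K1 was 0.37, 0.40 and 0.33 in untreated LS411N and -0.03, 0.04 and -0.16 in LS411N-BR, and with doxycycline 0.41, 0.50 and 0.43 against -0.11, -0.02 and 0.02. The lines did not overlap, and the mean difference was -0.45 (exact permutation p = 0.005, adjusted p = 0.015). MAP2K2 thus took 56.3% ± 0.562 of the pair in untreated LS411N and 49.1% ± 1.74 in LS411N-BR. On the level scales MAP2K2 was lower in LS411N-BR by each, at ratios of 0.658 over shared genes, 0.841 as deposited and 0.799 with median-of-ratios rescaling. MAP2K1 was 0.876 over shared genes but 1.12 and 1.07 on the other scales, so no direction can be given for it.

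The RAF pair differed less. The log2 ratio of ARAF to BRAF was 1.75, 1.73 and 1.29 in untreated LS411N and 1.33, 1.23 and 1.39 in LS411N-BR, which overlapped. With doxycycline it was 1.66, 1.53 and 1.34 against 1.24, 1.2 and 1.24. The mean difference was -0.28 (exact permutation p = 0.02, adjusted p = 0.04), and permuting within replicate numbers as well gave p = 0.0625. The level ratio of BRAF between the lines was 1.06 over shared genes, with overlap, and 1.35 and 1.3 on the other scales. ARAF had no fixed direction (0.883, 1.13 and 1.07).

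MAPK3 was higher in LS411N-BR without doxycycline on each scale, at ratios of 1.26, 1.61 and 1.52, and the lines did not overlap on any of them. Between the lines the annotation and gene lengths behind the TPM are assumed to be the same, which the sources used here do not state.

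No shift of the paralog ratios with doxycycline was called over both lines. The mean differences within lines were -0.09 for HRAS to NRAS, -0.08 for ARAF to BRAF and 0.05 for MAP2K2 to MAP2K1 (exact permutation p = 0.275, 0.34 and 0.245, adjusted p = 0.33, 0.34 and 0.33). In LS411N alone the MAP2K2 to MAP2K1 ratio did not overlap between the groups (mean difference 0.08, exact permutation p = 0.1, the smallest that 3 against 3 libraries allow). Without replicate 3 of untreated LS411N, ARAF to BRAF gave -0.16 (exact permutation p = 0.035, unadjusted).

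**Figure D3:**
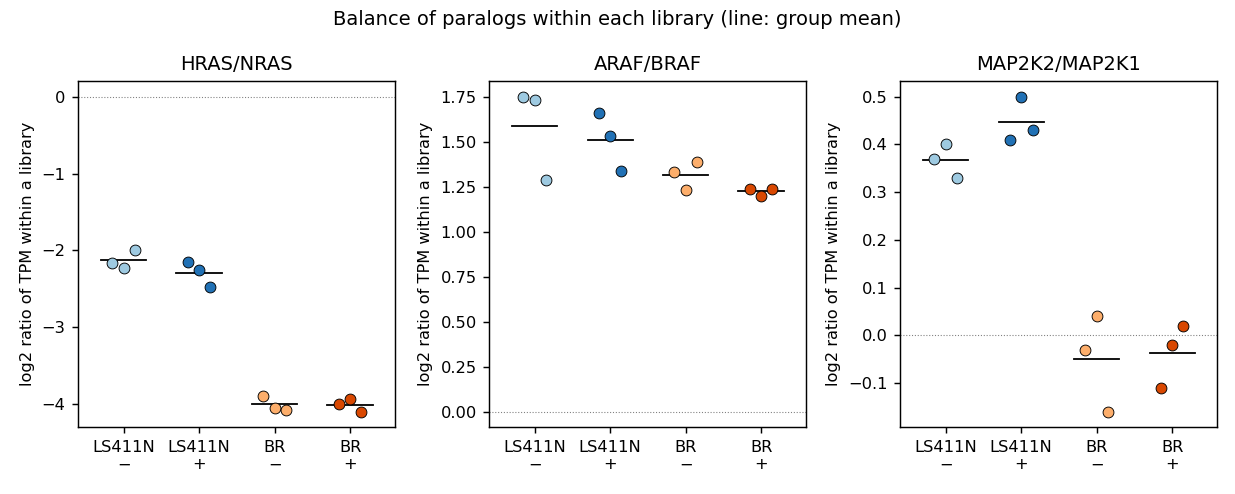
Log2 ratio of TPM within a library (vertical axis) for the paralog pairs HRAS/NRAS, ARAF/BRAF and MAP2K2/MAP2K1. Points are libraries, short lines are group means (n = 3) and the dotted line marks equal TPM. HRAS/NRAS lies near -4.00 in LS411N-BR and near -2.13 in untreated LS411N, and MAP2K2/MAP2K1 lies around 0 in LS411N-BR only.

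In both lines NRAS, MAP2K1 and MAP2K2 had the highest TPM, ARAF and MAPK3 came next, and HRAS and BRAF had the lowest. In untreated LS411N, MAP2K2 (37.7 ± 3.17 TPM), NRAS (30.3 ± 3.99) and MAP2K1 (29.3 ± 3.06) came in this order, and the last 2 did not differ beyond their spread. ARAF (11.6 ± 0.461 TPM) and MAPK3 (10.2 ± 0.55) followed, and then HRAS (7 ± 1.56) and BRAF (3.9 ± 0.68). In untreated LS411N-BR, NRAS (56.0 ± 1.79 TPM) led MAP2K1 (32.8 ± 0.882) and MAP2K2 (31.7 ± 2.93), which lay within their spread. MAPK3 (16.5 ± 0.65 TPM) stood above ARAF (13.1 ± 0.412), and HRAS (3.49 ± 0.15) stood below BRAF (5.28 ± 0.438).

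Likeness of pattern was measured by Pearson's r over the 12 libraries after rescaling and removal of each line's mean, among 7603 genes with at least 5 TPM on average in each line. MAPK3 was most like DHRS1 (0.991) and MAPKAPK3 (0.981), NRAS like MARS2 (0.987) and GPR180 (0.976), and ARAF like MBD6 (0.971) and PXN (0.969). MAP2K1 was most like RETREG2 (0.972) and RAB1B (0.956), and MAP2K2 like CDK5RAP1 (0.917) and SNX17 (0.916). HRAS and BRAF were below the level limit in 1 line each and were not ranked. Among the cascade genes MAPK3 ran closest to MAP2K2 (0.822), and NRAS and ARAF least together (0.203). The points share libraries and groups, so these values are a description.

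The regulators around RAS moved unevenly with doxycycline. Of 8 exchange factors, which load RAS with GTP, 2 were tested in LS411N and SOS2 rose, from 5.32 ± 1.07 to 7.59 ± 0.431 TPM (log2 fold change 0.45, limma adjusted p = 0.019). In LS411N-BR 3 were tested, and SOS1 (14.9 ± 0.644 to 19.1 ± 0.96 TPM) and SOS2 (6.52 ± 0.701 to 8.46 ± 0.145 TPM) rose, also after rescaling, beside 56.1% and, rescaled, 32.3% of all genes called higher. Of 10 GTPase-activating proteins, which return RAS to the GDP form, 8 were tested in LS411N with 0 higher and 1 lower, beside 9.75% and 3.43% of all genes, and 2 and 3 after rescaling, beside 18.8% and 16%. The member that fell was RASA3 (1.91 ± 0.828 to 1.11 ± 0.0845 TPM, adjusted p = 0.024). In LS411N-BR 3 of 7 rose and 2 fell, beside 56.1% and 11.1% of all genes. After rescaling 2 rose and 3 fell, beside 32.3% and 32.2%. As deposited, the share that rose was thus below that of all genes and the share that fell above it. Rescaled, the share that rose was near that of all genes. RASA2 rose there from 9.76 ± 0.433 to 17.2 ± 1.17 TPM and RASAL2 from 3.08 ± 0.172 to 4.3 ± 0.207 TPM, while RASA3 fell from 1.76 ± 0.174 to 0.825 ± 0.0118 TPM.

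Of 10 genes for lipid processing and traffic of RAS, 9 were tested, with 1 higher and 2 lower in LS411N and 5 and 2 in LS411N-BR (2 and 2, and 2 and 3, after rescaling). The shares over all genes were 9.75% higher and 3.43% lower in LS411N (18.8% and 16% rescaled). In LS411N-BR they were 56.1% and 11.1% (32.3% and 32.2% rescaled). The list's share higher in LS411N-BR as deposited was thus close to that of all genes. RCE1, the protease that trims the prenylated tail of RAS, fell in both lines, from 6.78 ± 1.11 to 3.48 ± 0.22 TPM in LS411N (log2 fold change -0.79, limma adjusted p = 1.9e-05) and from 10.1 ± 0.422 to 6.36 ± 0.666 TPM in LS411N-BR (-0.59, adjusted p = 9.9e-17). LYPLA2, a thioesterase that acts on palmitoylated proteins, rose in both (0.47 and 0.54). ZDHHC9, a palmitoyltransferase of HRAS and NRAS, fell in both lines. It went from 16.3 ± 0.808 to 12 ± 0.573 TPM in LS411N (limma adjusted p = 0.03) and from 17.1 ± 0.992 to 14.1 ± 0.396 TPM in LS411N-BR (adjusted p = 0.00033). PDE6D, a carrier of prenylated proteins, rose in LS411N-BR from 17.1 ± 0.628 to 23.1 ± 0.651 TPM.

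Related small GTPases include RRAS, RAP and RAL proteins. In LS411N 2 of 7 tested rose and 0 fell (6 and 0 after rescaling), beside 9.75% and 18.8% of all genes higher, with a median of 0.39 beside 0.08 over all genes. In LS411N-BR all 7 rose on both scales (median 0.57, and 0.36 rescaled), beside 56.1% and 32.3% of all genes. RRAS went from 4.05 ± 0.903 to 7.71 ± 1.16 TPM in LS411N (log2 fold change 0.79, limma adjusted p = 4.6e-05) and from 9.45 ± 0.192 to 19.3 ± 0.458 TPM in LS411N-BR (0.96, adjusted p = 1.1e-44). RALB, a GTPase downstream of RAS, rose by 0.48 and 0.66, and RALA by 0.57 in LS411N-BR.

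Of 25 scaffolds and RAF regulators 24 were tested, with 1 higher and 1 lower in LS411N and 12 and 3 in LS411N-BR (3 and 5, and 6 and 11, after rescaling). Beside these counts, 9.75% of all genes were higher and 3.43% lower in LS411N (18.8% and 16% rescaled). In LS411N-BR the shares as deposited lay near those of all genes, 56.1% higher and 11.1% lower. After rescaling there, the list had a smaller share higher and a larger share lower than all genes (32.3% and 32.2%). The 14-3-3 proteins bind phosphorylated RAF, among other partners. Their epithelial member SFN rose in both lines, from 52.7 ± 3.16 to 85.4 ± 8.62 TPM in LS411N (limma adjusted p = 0.00047) and from 44.2 ± 1.34 to 90.3 ± 4.47 TPM in LS411N-BR (adjusted p = 1.9e-56). YWHAG, another member, fell in both lines. It went from 121 ± 15 to 85.9 ± 1.92 TPM in LS411N (limma adjusted p = 0.016) and from 160 ± 5.35 to 131 ± 7.46 TPM in LS411N-BR (adjusted p = 7.1e-06). PEA15, which holds ERK in the cytoplasm, and CDC37, a chaperone of kinases, rose in LS411N-BR (0.61 and 0.41, and 0.41 and 0.20 rescaled). Of 8 other kinases that can activate MEK, 7 were tested in LS411N and 6 in LS411N-BR. In LS411N 1 rose and 0 fell, beside 9.75% and 3.43% of all genes (1 and 2 after rescaling, beside 18.8% and 16%). In LS411N-BR 3 rose and 2 fell, beside 56.1% and 11.1% (2 and 2 after rescaling, beside 32.3% and 32.2%). MAP3K9 rose in both lines (0.44 and 0.59), and in LS411N-BR MAP3K2 rose (0.45) and MAP3K1 fell (-0.37).

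Below ERK, 10 of 12 substrate kinases and ternary complex factors were tested, and 2 rose in LS411N and 7 in LS411N-BR with 0 lower in each (4 and 2 lower, and 5 and 2 lower, after rescaling). Of all genes 9.75% and 56.1% were higher, and 18.8% and 32.3% after rescaling. The shares lower were 3.43% and 11.1%, and 16% and 32.2% after rescaling. MKNK2, a kinase of the translation factor eIF4E, rose from 24.3 ± 1.35 to 46.8 ± 4.8 TPM in LS411N (log2 fold change 0.91, limma adjusted p = 3.6e-06) and from 20.1 ± 0.974 to 40.8 ± 1.73 TPM in LS411N-BR (0.98, adjusted p = 2.3e-50). RPS6KA5 (MSK1) rose in both (0.41 and 0.53), and RPS6KA1 (RSK1) in LS411N-BR from 23.7 ± 1.25 to 41.3 ± 2.68 TPM.

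Transcripts that are used as a readout of ERK activity, 9 of 10 tested, went both ways. In LS411N 2 rose and 1 fell (4 and 1 after rescaling), with a median of 0.10 beside 0.08 over all genes. In LS411N-BR 6 rose and 2 fell (5 and 3), with a median of 0.49 beside 0.18. Of all genes 9.75% were higher and 3.43% lower in LS411N, and 56.1% and 11.1% in LS411N-BR (32.3% and 32.2% rescaled). EPHA2 and CCND1 (cyclin D1) rose in LS411N, from 14 ± 0.368 to 27.3 ± 2.3 and from 59.6 ± 4.3 to 100 ± 3.11 TPM, and in LS411N-BR, from 15.9 ± 0.16 to 31.3 ± 1.12 and from 57.1 ± 3.01 to 107 ± 6.53 TPM. SPRY2, a feedback inhibitor of the pathway, fell in both, from 12.1 ± 1.58 to 6.04 ± 0.33 TPM (limma adjusted p = 3.2e-06) and from 17.7 ± 0.981 to 7.77 ± 0.258 TPM (adjusted p = 5.4e-57). Colon epithelial markers moved in the same comparisons, with 4 of 8 higher in LS411N and all 8 in LS411N-BR as deposited (5 and 5 rescaled), beside 9.75% and 56.1% of all genes (18.8% and 32.3%), and their part in these values was not tested.

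In none of the cascade lists did the interaction term call a gene as deposited; among the cell type markers it called LYZ (-0.72, limma adjusted p = 0.0068). After rescaling it called 1 GTPase-activating protein, 2 ERK substrates and 1 readout transcript with a more positive doxycycline effect in LS411N-BR. Those with a more negative effect there were 3 scaffolds, 2 readout transcripts and the markers LYZ, CD68 and CDH17. The background was 2.12% of all genes as deposited and 10.2% rescaled.

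**Figure D4:**
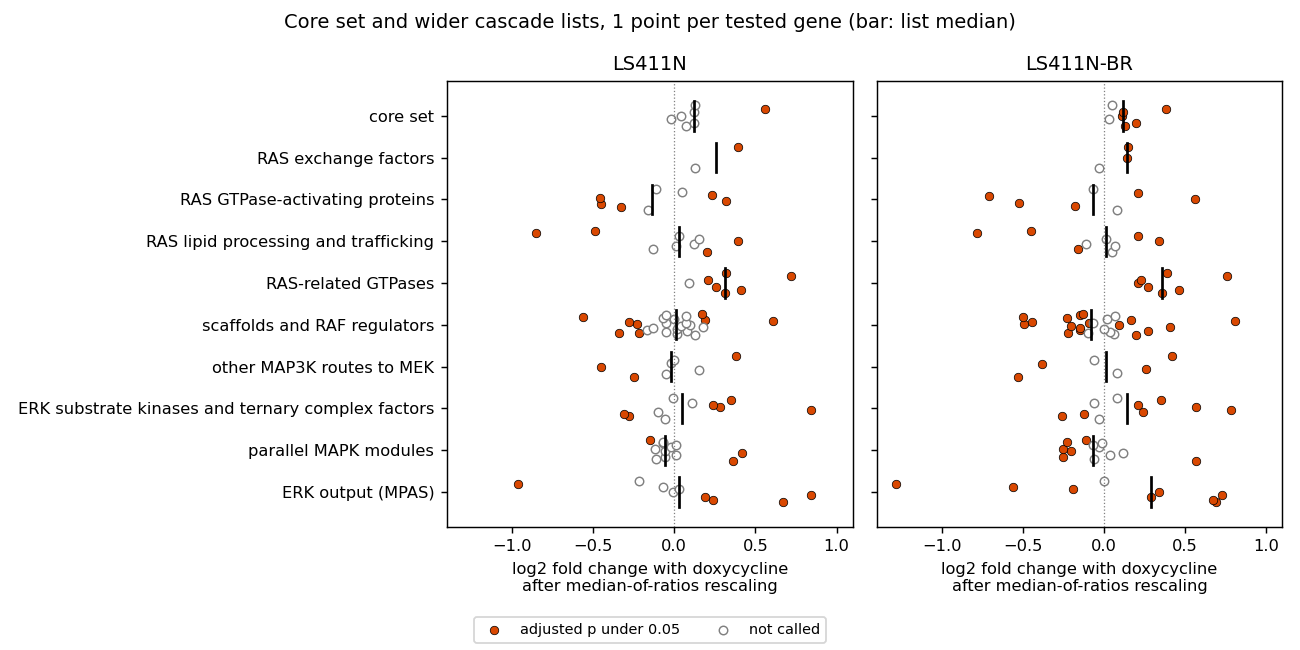
Log2 fold change with doxycycline after median-of-ratios rescaling (horizontal axis) for every tested gene of the core set and of the wider lists, in LS411N (left) and LS411N-BR (right). Filled points have a limma adjusted p under 0.05, open points do not, and the bar is the list median. The medians of the RAS-related GTPases lie at 0.31 and 0.36, against 0.12 for the core set in each line.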

How the data were processed

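The authors deposited TPM per gene in 1 table per line, 25673 genes for LS411N and 25540 for LS411N-BR, with 1 column per library. Libraries were made with TruSeq Stranded mRNA, per the labels' protocols. STAR, DESeq2 and GRCh38 are named, without roles, per the submitters' processing notes. The program behind the TPM, its annotation and its use of strand are unstated in the sources used here. Each deposited library sums to 1000000 TPM, so depth is unknown and no counting interval is given. Opposite-strand genes NDUFB2 and SNAPC5 overlap BRAF and MAP2K1.

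limma 3.58.1 (R 4.3.3) was fitted on log2(TPM + 1) with an intensity trend, two-sided, on genes reaching 1 TPM in 3 or more libraries, with Benjamini-Hochberg adjustment and calls under 0.05. Doxycycline was tested within each table and its difference between lines as an interaction over 12 libraries. On simulated data, 1.5-fold changes were recovered for 48% of 100 genes in LS411N (11220 tested) and 99% in LS411N-BR (11147 tested). The changed genes were drawn above about 5 TPM, so BRAF in LS411N and HRAS in LS411N-BR lay outside that range. Noise was drawn separately for each gene, so no shift of a whole library was simulated. Paralog ratios used exact permutation. Gene types and promoters came from RefSeq (24298 of 25673 symbols matched, and promoters for all 7 genes), positions from GENCODE 29. Named genes are MUC1, the 7 genes, up to 3 called genes of each list with the smallest adjusted p in each line, and the 2 genes most like each member. 1 further list is not reported here. The genes and lists were chosen with earlier results of these data known, so no p is adjusted over a list alone. No joint deviation of same-numbered libraries was visible (sensitivity part).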

Additional observations from a re-analysis of the deposited data

How the results depend on the processing

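The alternatives were median-of-ratios rescaling, a pseudocount of 0.1 TPM, a limit of 5 TPM or none, limma without trend or with robust moderation, dropping single libraries, a replicate block and a spread from all 12 libraries. Rescaling over protein-coding genes or over shared genes, and rescaling without replicate 3 of untreated LS411N, were chosen after seeing the data. In LS411N the count of the 7 genes called higher was 1 to 6 on leaving out single libraries, with 6 without replicate 3 of untreated LS411N, and 3 with protein-coding rescaling (NRAS, MAP2K2 and MAPK3). In LS411N-BR it was 6 to 7 on leaving out libraries. Signs turned only for differences that were not called. HRAS in LS411N was -0.02 after median-of-ratios rescaling and -0.01 and -0.06 without replicates 1 and 2 of untreated LS411N (range -0.06 to 0.20 on leaving out libraries), and ARAF was -0.06 rescaled without replicate 3. The difference between lines turned for NRAS to -0.08 with median-of-ratios rescaling, -0.06 without that replicate, -0.04 over protein-coding genes and -0.07 rescaled without it. For MUC1 it turned to 0.05 over shared genes and 0.09 rescaled without that replicate. Ratios of ARAF between lines were 1.13 and 1.07, and of MAP2K1 1.12 and 1.07, in place of 0.883 and 0.876. Leaving out 1 library, the line difference of ARAF to BRAF ran from -0.35 to -0.24 and its doxycycline difference from -0.16 to -0.04. The cause of these changes was not tested. With the replicate block, the replicate number as covariate or stratum, the count was 1 in LS411N and 7 in LS411N-BR, and ARAF to BRAF between lines (-0.28) had an exact permutation p of 0.0625. Deviations of same-numbered libraries correlated at 0.029, 0.006 and 0.173 in LS411N and 0.023, 0.003 and 0.008 in LS411N-BR. Differently numbered libraries of LS411N ran from -0.212 to 0.214. No pairing by number is thus visible, and 3 libraries per group cannot exclude one. Without sequencing depth, small differences of HRAS and BRAF cannot be set against counting error.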

Other observations

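The parallel MAP kinase modules, which carry stress and cytokine signals through p38, JNK and ERK5, stayed near the median of all genes. Of 14 listed genes 12 were tested. In LS411N 2 rose and 0 fell with doxycycline, beside 9.75% and 3.43% of all genes (2 and 1 after rescaling, beside 18.8% and 16%), with a median log2 fold change of 0.01 beside 0.08. In LS411N-BR 7 rose and 0 fell (1 and 5 after rescaling), beside 56.1% and 11.1% of all genes (32.3% and 32.2%), with a median of 0.14 beside 0.18. MAP2K3, a kinase that activates p38, rose in both lines and on both scales, from 20.5 ± 0.433 to 28.1 ± 2.34 TPM in LS411N (limma adjusted p = 0.027) and from 22.2 ± 1.17 to 38.5 ± 1.38 TPM in LS411N-BR (adjusted p = 4.9e-31). MAPK11 (p38 beta) rose in LS411N from 1.62 ± 0.246 to 2.64 ± 0.107 TPM (adjusted p = 0.004), and in LS411N-BR its call and that of MAP2K7 were lost after rescaling (adjusted p = 0.076 and 0.46).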
